A study of Homo sapiens with 8 samples.

Results

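The genes described here are grouped by what they encode. They are 7 ASB adaptor genes (ASB2, ASB1, ASB3, ASB6, ASB7, ASB8 and ASB13) and 3 subunits of the CUL5 ubiquitin ligase that these adaptors join (CUL5, ELOB and RNF7). These 10 genes stand among 20162 protein coding genes, and 64440 annotated genes for which FLI1 ChIP-Seq peaks could be looked up. FLI1, an ETS family transcription factor, was immunoprecipitated with a rabbit polyclonal antibody from OCI-Ly1 and VAL, both established cell lines of germinal center B-cell (GCB) diffuse large B-cell lymphoma (DLBCL). Each line gave 2 FLI1 libraries, labelled as replicates, and 2 samples of input DNA, which were not analysed here. No treatment or other genotype was compared, each group is a single cell line, and the labels do not say whether replicates came from separate cultures.

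ASB proteins carry ankyrin repeats that hold a substrate and a SOCS box that docks to the adaptor Elongin B/C and to the scaffold CUL5. CUL5 in turn holds the RING protein RNF7, which recruits the ubiquitin-conjugating enzyme, and the ligase becomes active when NEDD8 is attached to the cullin. In blood cells ASB2 is best known for the degradation of filamins, and the study reports it as a direct target of FLI1 that acts on NF-κB signaling. Its evidence included FLI1 peaks in the ASB2 promoter and distal enhancers, ChIP-qPCR and lower ASB2 expression after FLI1 knockdown. Only the deposited FLI1 peak lists were examined here.

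For every gene the best peak was the one with the highest -log10 q, the peak caller's adjusted p-value, among peaks centred within 3 kb of any annotated transcription start site (TSS). A peak with a -log10 q of at least 3, an FDR of 0.001, was called passing. OCI-Ly1 replicate 1 held only 37 intervals, 33 of them longer than 1 Mb, and its intervals were not read as binding sites. OCI-Ly1 thus has no replicate check, and in what follows OCI-Ly1 stands for its replicate 2, and VAL-1 and VAL-2 for the VAL replicates. The 3 lists used hold 237178 to 1107379 peaks, of which 0.410% to 0.656% passed. Since the lists give no read totals, the reads at a summit were inferred from its fold enrichment and p-value. The weakest passing peak held 6 reads in OCI-Ly1 and VAL-2 and 8 reads in VAL-1. With 1 usable OCI-Ly1 library and no treatment, no test between conditions was possible, and the values below are descriptions beside the share of all protein coding genes. The genes described, called members below, and the gene lists set beside them were chosen with earlier results of these data known. A count above or below the share of all genes is therefore not a test.

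A passing promoter peak was found for 4 members, ASB1, ASB3, ASB6 and ASB2, and the ligase subunits had none. The sequences under these peaks are shown first, since the ETS family binds a GGAA core and the sequence was not used to choose the genes. The sought motif was CCGGAAA or CCGGAAG on either strand, within 50 bp of a summit. In the lines that follow it stands in capitals, read 5′ to 3′ on the plus strand of GRCh37.
ASB1 upstream site, chr2:239335518-239335544: gacagcgaggCCGGAAGcggaggcgtg
ASB1 middle site, chr2:239335579-239335605: cgcgcgcccgCCGGAAGccgcgacccc
ASB1 downstream site, chr2:239335621-239335647: gccctcggcgCCGGAAGtggtcgcggg
ASB3 first site, chr2:54014140-54014166: gtcgtctgccCCGGAAAcggtgacagg
ASB3 second site, chr2:54014193-54014219: gccgggctctCCGGAAGgagacgtggc
ASB6 site, chr9:132404428-132404454: cgcgcccccgCCGGAAGtgaccctcgt
All 3 members with passing promoter peaks in both cell lines held the motif, while ASB2 did not. Its 2 passing peaks, both from VAL-2, each held CAGGAAGT, another form of the ETS motif, which was sought only after these sequences had been seen. The 101 bases around each ASB2 summit are printed on the plus strand with this motif in capitals, and in the first it lies on the minus strand, the strand of the gene, so that its reverse complement is seen.
ASB2 upstream peak, chr14:94444676-94444776: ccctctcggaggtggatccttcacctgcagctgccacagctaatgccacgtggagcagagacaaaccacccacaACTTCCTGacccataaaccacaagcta
ASB2 intronic peak, chr14:94433739-94433839: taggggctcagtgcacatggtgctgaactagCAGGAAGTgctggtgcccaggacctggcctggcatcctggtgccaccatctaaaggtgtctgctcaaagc

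In OCI-Ly1, 3 of 10 members had a passing promoter peak (ASB1, ASB3 and ASB6), against 19.0% of protein coding genes. In VAL-1 the count was 1 of 10 (ASB1), against 3.14%, and in VAL-2 it was 4 of 10 (ASB2, ASB1, ASB3 and ASB6), against 20.8%. Passing peaks in both cell lines were found for 3 of 10 members, against 12.6% of protein coding genes, and in at least 1 library for 4 of 10, against 27.4%. With 10 genes, each of these counts would change by 10 percentage points with a single gene. The median best -log10 q of the members was 1.17 in OCI-Ly1, 0.183 in VAL-1 and 2.33 in VAL-2. Over all protein coding genes the medians were 1.22, 0.183 and 1.64, with genes without a listed peak set to 0 in both cases. The members thus lay near the typical gene in the first and second of these libraries, while ASB1, ASB3 and ASB6 stood far above the rest of the group in OCI-Ly1, VAL-2 or both.

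**Figure D1:**
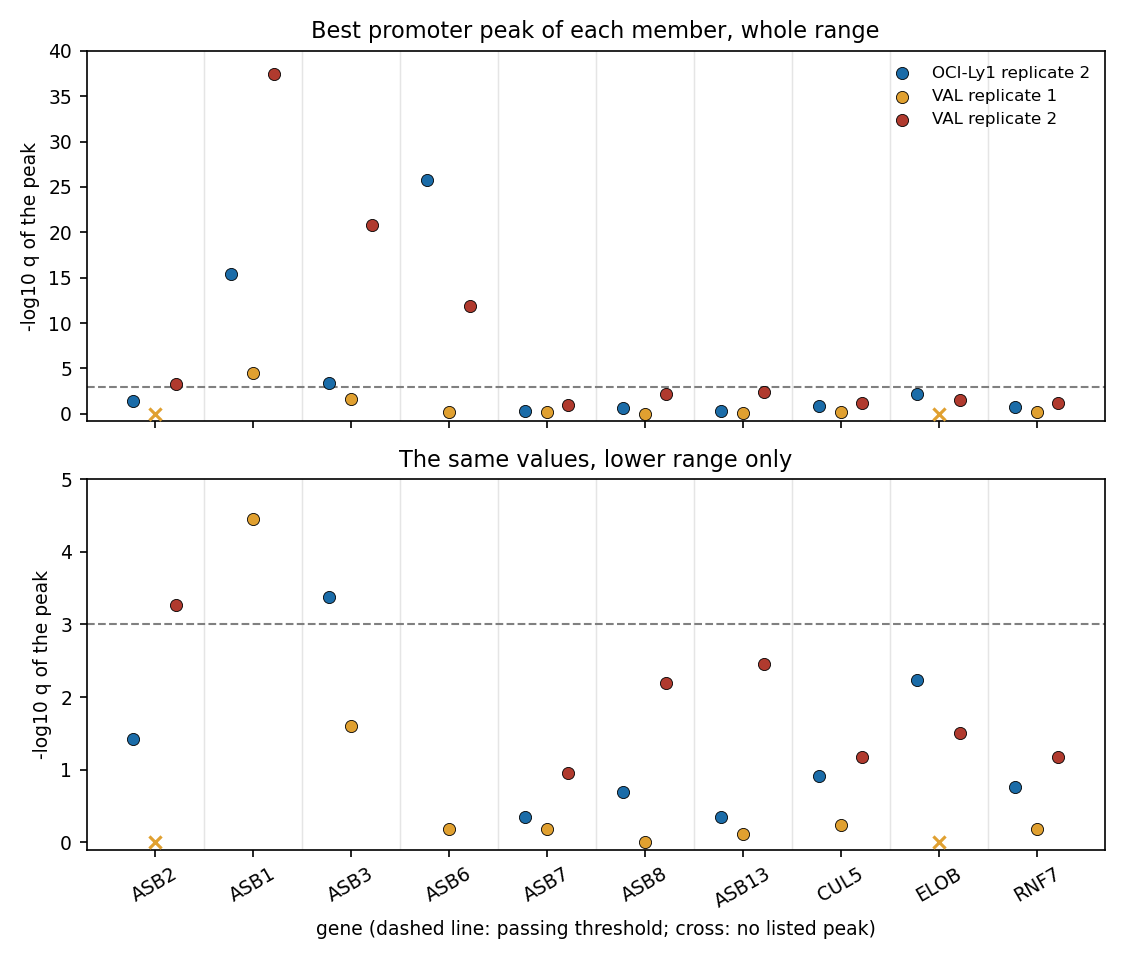
Highest -log10 q among the promoter peaks of each member in each library, with the whole range above and values up to 5 below; the dashed line marks the passing threshold of 3 and a cross marks a gene with no listed promoter peak. ASB1, ASB3 and ASB6 reach 37.4, 20.8 and 25.8 in their highest library, ASB2 reaches 3.27 in VAL-2, and no point of ASB7, ASB8, ASB13, CUL5, ELOB or RNF7 exceeds 2.46.

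Among the adaptors, ASB1 (ENSG00000065802; chromosome 2, 239335383 to 239360891, plus strand) was the only member with a passing promoter peak in all 3 libraries, as had 2.73% of protein coding genes. ASB1 is a widely expressed adaptor of the family. Its best peak had a -log10 q of 15.4 in OCI-Ly1, 4.45 in VAL-1 and 37.4 in VAL-2. These values were higher than those of 97.2%, 97.9% and 99.5% of protein coding genes in the respective lists. The fold enrichments were 11.1, 4.89 and 20.6, and the summits held 18, 17 and 29 reads. The summits of OCI-Ly1 and VAL-2, at 239335613 and 239335612, were 1 bp apart in an annotated UTR at the 5′ end of the gene, between the middle and the downstream sites printed above. The centres of these sites were 21 bp to either side of the OCI-Ly1 summit. The summit of VAL-1, at 239335512, was 100 bp from that of VAL-2, in an exon, and was 19 bp from the centre of the upstream site. The peaks of the 3 libraries overlapped, but their summits lay beside different copies of the same 7 bases. The start of a long non-coding gene, ENSG00000229915, is within 3 kb of each of these peaks.

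ASB6 (ENSG00000148331; chromosome 9, 132396883 to 132404448, minus strand), an adaptor linked to insulin signaling, had the strongest member peak of OCI-Ly1. The -log10 q was 25.8 in OCI-Ly1, 0.183 in VAL-1 and 11.9 in VAL-2, with 23, 8 and 14 reads at the summit. The first value ranked 189 in its list and the last ranked 902. Both passing summits lay next to the start sites of the gene, at 132404425 in OCI-Ly1 and 45 bp away at 132404470 in VAL-2. The peak of VAL-1 did not pass, yet its summit at 132404457 was between them. The single CCGGAAG printed for ASB6 was centred 16 bp from the OCI-Ly1 summit and 29 bp from that of VAL-2. A CAGGAAGT on the minus strand lay beside it, centred 34 and 11 bp from the same summits, and is shown here on that strand because it is the form found at ASB2.
ASB6 second site, chr9:132404445-132404472: tcggcgcgggCAGGAAGTacgagggtca
The long non-coding gene ENSG00000234789 starts within 3 kb of the ASB6 peaks.

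ASB3 (ENSG00000115239; chromosome 2, 53759810 to 54087297, minus strand) has 16 annotated TSS, and its best peak in each library was at the one at 54014146. This adaptor has been tied to the turnover of a TNF receptor. The -log10 q was 3.38 in OCI-Ly1, 1.60 in VAL-1 and 20.8 in VAL-2, with 7, 14 and 21 reads. The VAL value was thus high in 1 replicate and below the threshold in the other. The summits of the VAL libraries were 2 bp apart (54014169 and 54014171), and that of OCI-Ly1, at 54014126, was 43 and 45 bp from them. The first ASB3 site was centred 27 bp from the summit of OCI-Ly1 and 18 bp from that of VAL-2, and the second site 35 bp from the latter. ERLEC1, a lectin of the endoplasmic reticulum, starts in the same promoter, and its TSS was 4 and 2 bp from the summits of VAL-1 and VAL-2. The peak cannot be assigned to 1 of the 2 genes from these lists.

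ASB3 and ASB6 show how the background sets a call. In VAL-1 the summit of ASB3 held 14 reads and did not pass, although 8 reads were enough elsewhere in that library, since the local background behind it was 3.35 reads. The background was 2.68 reads at ASB1 and ASB6 in VAL-1, and also at ASB8, which passed in no library. The most common value in VAL-1 was 0.526. In OCI-Ly1 the backgrounds of the passing member peaks were between 0.512 and 0.717 reads, and in VAL-2 between 0.359 and 0.628. The most common values of these libraries were 0.283 and 0.278. What raised the background at these promoters in VAL-1 was not tested.

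**Figure D2:**
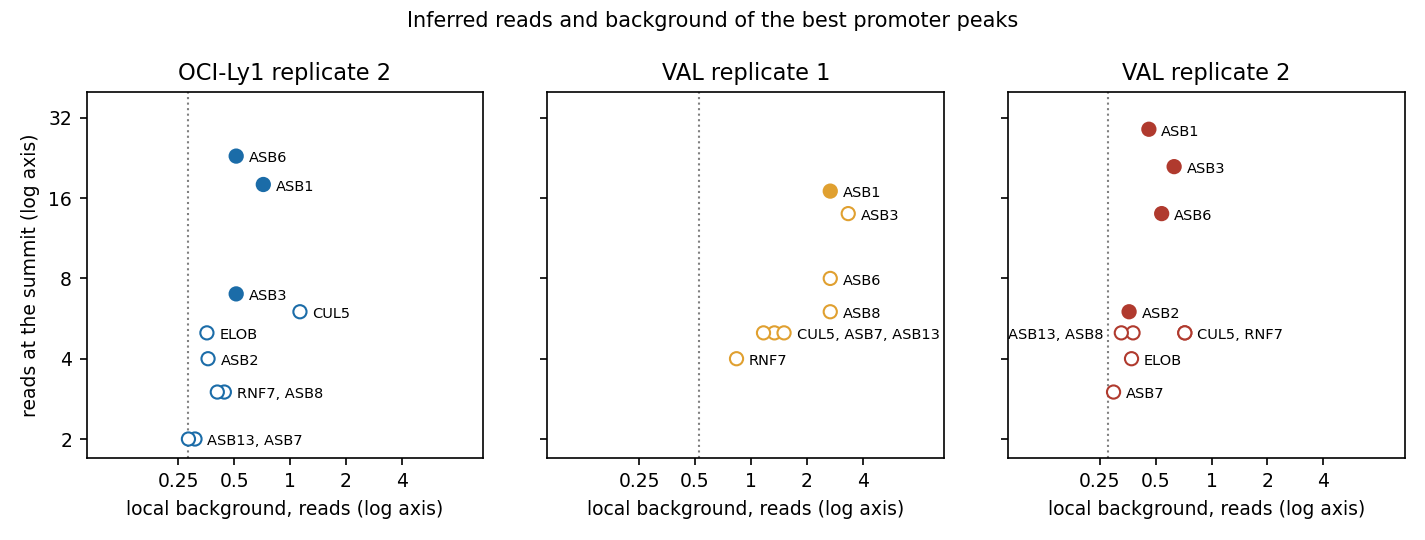
Inferred reads at the summit against the inferred local background for the best promoter peak of each member, 1 panel per library, both axes on a log scale, with passing peaks filled and the most common background of the library as a dotted line. The ASB1, ASB3 and ASB6 peaks of VAL-1 hold 17, 14 and 8 reads but sit at backgrounds of 2.68 to 3.35, to the right of every member peak of the other libraries. The ASB8 peak of VAL-1, with 6 reads, sits at 2.68 as well.

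ASB2 (ENSG00000100628; chromosome 14, 94400512 to 94443085, minus strand), the filamin adaptor, had a passing promoter peak in VAL-2 and in no other library, as had 8.12% of protein coding genes. The best promoter values were a -log10 q of 1.42 in OCI-Ly1, no listed promoter peak in VAL-1 and 3.27 in VAL-2. The last was higher than in 80.0% of protein coding genes, ranked 5726 in its list, and rested on 6 reads over a background of 0.359. It lay in intergenic sequence, with a summit at 94444726, 1641 bp upstream of the TSS at 94443085. When promoters were limited to 1 kb from a TSS, the best value of ASB2 in VAL-2 was 1.82 and did not pass. The best promoter peak of OCI-Ly1 was elsewhere, 24 bp from an internal TSS at 94421617, and held 4 reads. At the VAL site itself OCI-Ly1 had a listed peak with a -log10 q of 0.344 and 3 reads, its summit 10 bp away, and VAL-1 had none.

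Passing peaks inside the member genes numbered 2 in OCI-Ly1, 1 in VAL-1 and 4 in VAL-2, or 7 in all. They fell in 2, 1 and 4 of the 10 genes, against 15.9%, 2.59% and 18.8% of protein coding genes with a passing peak inside. Of these 7, 6 were the promoter peaks of ASB1, ASB3 and ASB6 already described. The ASB6 peak of OCI-Ly1 is centred just outside the gene and is not among them. The remaining one was in an intron of ASB2, with its summit at 94433789 in VAL-2, 6640 bp from the closest TSS of the gene. With 7 reads, its enrichment was 5.69 and its -log10 q 4.06, and it was the only passing member peak centred more than 3 kb from a TSS. In OCI-Ly1 and VAL-1 the highest -log10 q inside ASB2 was 1.61 and 1.72. Listed peaks of any strength covered 25.5% of the gene in OCI-Ly1, 27.2% in VAL-2 and 1.03% in VAL-1. In OCI-Ly1 and VAL-2 a weak listed peak inside ASB2 is therefore no rare event.

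**Figure D3:**
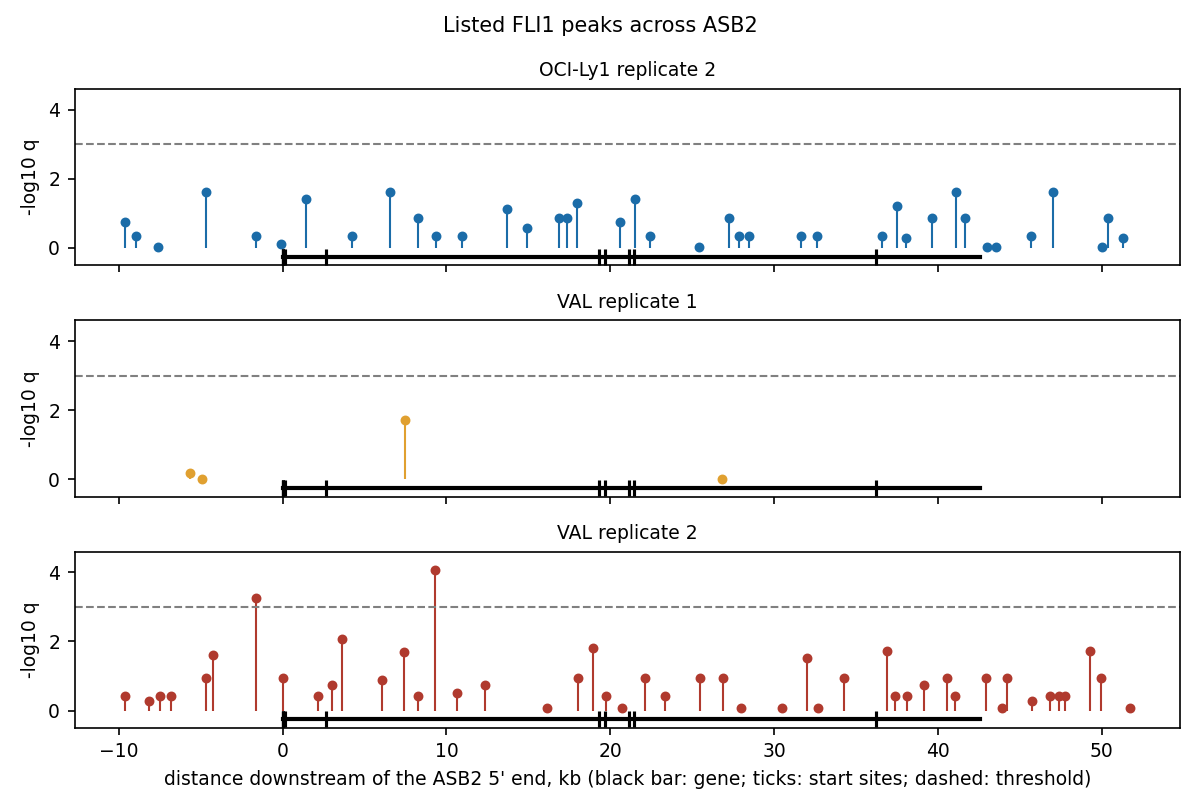
The -log10 q of every listed peak in and around ASB2 by distance of its summit from the 5′ end of the gene in kb, 1 panel per library, with the gene as a black bar, its 10 annotated start sites as ticks and the passing threshold of 3 as a dashed line. Only VAL-2 has peaks above the line, 1 upstream of the gene at 3.27 and 1 in an intron at 4.06.

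The other 3 adaptors, ASB7, ASB8 and ASB13, had no passing promoter peak. Substrates of ASB8 and ASB13 are less well known, while ASB7 has been linked to chromatin and spindle proteins. For ASB7 (ENSG00000183475) the -log10 q was 0.344 in OCI-Ly1, 0.183 in VAL-1 and 0.952 in VAL-2, with 2, 5 and 3 reads, and each summit was at least 733 bp from a TSS. ASB8 (ENSG00000177981) had 0.698, 0 and 2.19, with 3, 6 and 5 reads. CCDC184, another coding gene, starts within 3 kb of the ASB8 peaks of VAL-1 and VAL-2. ASB13 (ENSG00000196372) had 0.344, 0.118 and 2.46, with 2, 5 and 5 reads. For ASB8 and ASB13 the value of VAL-2 was the highest of the 3, and both of these summits lay in an intron 323 and 322 bp downstream of the closest TSS. The value of 2.46 was the closest below the threshold among all members, and 3.27 at ASB2 the closest above it.

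The ligase subunits had no passing promoter peak in any library. CUL5 (ENSG00000166266; chromosome 11, 107879624 to 107978488), the scaffold, had a -log10 q of 0.918 in OCI-Ly1, 0.238 in VAL-1 and 1.18 in VAL-2, with 6, 5 and 5 reads. The summits of OCI-Ly1 and VAL-2 flanked the first start sites, 64 bp upstream and 56 bp downstream of the closest TSS, while that of VAL-1 was far inside the gene. The OCI-Ly1 peak had as many reads as the weakest passing peak of that library but a background of 1.13. It is the only non-passing member peak outside ASB3 and ASB6 with CCGGAAA or CCGGAAG within 50 bp of its summit, and the site is centred 31 bp away.
CUL5 site, chr11:107879516-107879542: gggcggggtgCCGGAAAacgccaggtc
ELOB (ENSG00000103363), which encodes Elongin B, had 2.24 in OCI-Ly1, no listed promoter peak in VAL-1 and 1.50 in VAL-2. Its summits were 94 and 335 bp upstream of the gene, closer to the start of the non-coding gene ENSG00000276791. RNF7 (ENSG00000114125), the RING subunit, had 0.758, 0.183 and 1.18, and the peaks of the 3 libraries lay 1475 to 3968 bp from each other. Another coding gene, ENSG00000285558, starts within 3 kb of each of these RNF7 peaks. Its start was the closest in VAL-1 and VAL-2, and in VAL-2 it was 39 bp from the summit, against 194 bp for RNF7. A gene with no listed promoter peak was not unusual in VAL-1, where 25.1% of protein coding genes had none, against 1.13% and 1.44% in the other libraries.

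**Figure D4:**
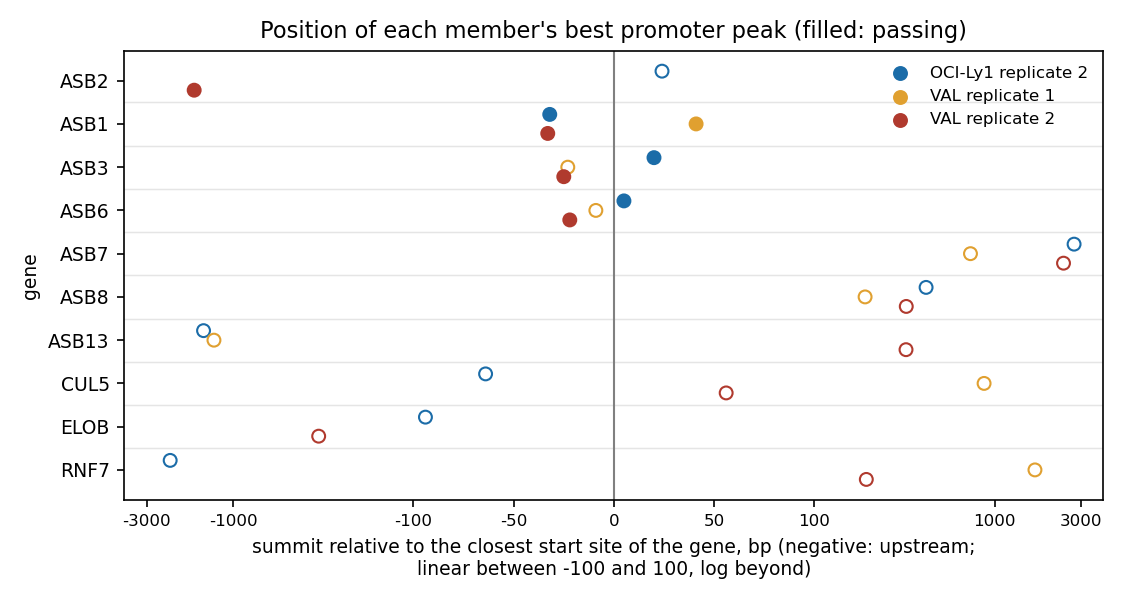
Position of the summit of each member's best promoter peak relative to the closest start site of that gene in bp, with negative values upstream, a linear axis between -100 and 100 and a log axis beyond, and passing peaks filled. All peaks of ASB1, ASB3 and ASB6 lie within 41 bp of a start site, passing or not, while the passing ASB2 peak is 1641 bp upstream and the other members are scattered.

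The position of a peak can be compared between libraries without the threshold. The best promoter peaks of at least 1 pair of libraries had summits within 100 bp of each other for 3 of 10 members, ASB1, ASB3 and ASB6, against 28.0% of protein coding genes. For these 3 members the 9 pairwise distances were 1 to 101 bp. For the other members no pair was closer than 132 bp, the distance between the ASB8 peaks of the VAL libraries. Among genes that passed in both VAL libraries the median distance was 20 bp and 92.2% were within 100 bp. Among genes that passed in neither, the median was 3105 bp and 6.28% were within 100 bp. The VAL-1 peaks of ASB3 and ASB6, which had not passed, were 2 and 13 bp from those of VAL-2. Counted by an overlap of at least 1 bp in place of the summits, 7 members shared a best peak. No share of protein coding genes is given for this rule, so the count cannot be read as agreement particular to the members.

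The motif CCGGAAA or CCGGAAG was within 50 bp of a passing summit for 3 of the 4 members with a passing promoter peak, and in each library where they passed. This held for 3 of 3 passing member peaks of OCI-Ly1, against 44.7% of its passing promoter peaks, for 1 of 1 in VAL-1, against 53.5%, and for 3 of 4 in VAL-2, against 37.7%. In windows of the same length 250 bp away from the summits the shares were 4.01%, 4.19% and 3.25%. The 7 base pairs are thus a common feature of FLI1 promoter peaks in these lists, and their presence at ASB1, ASB3 and ASB6 does not set these genes apart. CAGGAAGT was at 4.49% of the passing promoter peaks of VAL-2 and at 4.32% of its passing peaks farther than 3 kb from a TSS, and in the windows 250 bp away at 0.596% and 0.759%. Both passing ASB2 peaks held it, centred 28 bp and 15 bp from the summit. This motif was picked from these peaks, so the count is a description. The GGAA core alone was at 83.6% of the passing promoter peaks of VAL-2 and tells little.

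The ASB2 promoters had the lowest GC content and CpG ratio among those of the members. Promoters of 300 bp, from 250 bp before to 50 bp after the start, were taken from RefSeq on GRCh38.p14, where all 10 members had an entry, with 2 for ASB2. The ASB2 promoters had a GC content of 50.7% and 57.0% and an observed to expected CpG ratio of 0.416 and 0.288. The passing ASB2 promoter peak, with its summit 1641 bp upstream of the closest TSS, lay outside these 300 bp promoters. Promoters of the other members had 60.3% to 76.3% GC and a CpG ratio of 0.521 to 1.08. Over 22198 promoters of protein coding genes the medians were 62.3% and 0.737. ASB1, ASB3 and ASB6 had 71.0%, 69.3% and 74.7% GC, but ASB13, ELOB and RNF7 had as much (73.7% to 76.3%) and no passing peak. CCGGAAA or CCGGAAG was found 3 times in the ASB1 promoter, 2 times in that of ASB3 and once in those of ASB6, ASB8 and CUL5, so 5 of the 11 member promoters held it, against 16.7% of all promoters. CAGGAAGT was in the promoter of ASB6 alone among the members, and in 3.04% of all promoters.

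The other 11 ASB genes of the list (ASB4, ASB5, ASB9 to ASB12 and ASB14 to ASB18) had no passing promoter peak in any library. Of protein coding genes, 27.4% had one in at least 1 library. The ASB genes that passed (ASB2, ASB1, ASB3 and ASB6) are all members and thus absent from this list. The split was made with earlier results of these data known, so the lack of passing peaks is not a result about the family. The median best -log10 q of the 11 other ASB genes was 0.496, 0.183 and 0.952 in OCI-Ly1, VAL-1 and VAL-2. Many of them are known from testis or muscle rather than from lymphoid cells, but expression was not measured here and a link to the lack of passing peaks was not tested. Of 18 other receptors with a SOCS box, 3, 0 and 5 passed, which is 16.7%, 0% and 27.8%, near the shares of all genes. WSB2, a WD repeat receptor, passed in OCI-Ly1 (14.1) and VAL-2 (6.56) and not in VAL-1 (2.09). LRRC41, a leucine-rich repeat receptor, had 12.4, 2.71 and 9.85, in a promoter shared with UQCRH. The remaining 16 receptors passed in 1 library at most.

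Among 24 genes of the cullin machinery, 9 passed in OCI-Ly1 (37.5%), 2 in VAL-1 (8.33%) and 10 in VAL-2 (41.7%), against 19.0%, 3.14% and 20.8% of protein coding genes. Their medians were 2.23, 0.308 and 2.39. Of these 24 genes, 12 passed in at least 1 library, against 27.4% of protein coding genes, and the others, RBX1 among them, passed in none. CUL5, ELOB and RNF7 are not in this list and had no passing promoter peak. With 3 genes, this does not set them apart from the list or from protein coding genes. The genes that passed included several that act on more than 1 cullin, and also UBE2F, which acts on CUL5. COPS7A, a subunit of the COP9 signalosome that removes NEDD8, passed in all 3 libraries (16.6, 6.57 and 13.7), as did DCUN1D3, which assists neddylation (6.47, 4.08 and 6.56). UBE2F, the NEDD8-conjugating enzyme that works with RNF7 on CUL5, had 24.2 in OCI-Ly1, 0 in VAL-1 and 31.6 in VAL-2. UBE2M, the NEDD8 enzyme of the other cullins, had 16.1, 1.02 and 12.0, with summits 1935 to 2015 bp from its closest annotated start site, in a region where CHMP2A also starts. NEDD8 itself had 3.86, 0.183 and 3.10, and COPS7B had 9.97, 1.03 and 5.19. Other coding genes start within 3 kb of several of these peaks. They are ERI2 and LYRM1 for DCUN1D3, GMPR2 and NEDD8-MDP1 for NEDD8, PDE6D for COPS7B, and UBE2F-SCLY for the passing UBE2F peaks.

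Subunits that work with the members, or in their place in other ligases, were looked up as well. ELOC, which encodes Elongin C, the partner of ELOB, had 3.51 in OCI-Ly1, 0.543 in VAL-1 and 2.44 in VAL-2, with a promoter shared with TMEM70. CUL2, the other cullin that pairs with Elongin B/C, had 4.94, 2.81 and 6.56, and CREM starts within 3 kb of its OCI-Ly1 and VAL-1 peaks. RBX1, the RING protein of CUL2, had 1.52, 0.495 and 2.70 and did not pass. Of 7 clients and partners of ASB2, 3, 0 and 2 passed (42.9%, 0% and 28.6%), against 19.0%, 3.14% and 20.8% of protein coding genes. FLNA, which encodes a filamin, did not pass (0.873, 0.183 and 1.71), and neither did JAK2 (0.873, 0.190 and 1.51). JAK3 passed in VAL-2 (1.22, 0.183 and 3.29), and TCF3, which encodes the E2A factors, in OCI-Ly1 (5.80, 0 and 1.54). SKP2, an F-box protein with which ASB2 can bridge CUL5 and CUL1, passed in OCI-Ly1 (7.54, 0.495 and 1.51), where LMBRD2 also starts within 3 kb of the peak. KMT2A, which encodes a histone methyltransferase, passed in OCI-Ly1 and VAL-2 (5.19, 2.02 and 6.15). The median of these 7 genes was 1.61, 0.183 and 1.71.

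**Figure D5:**
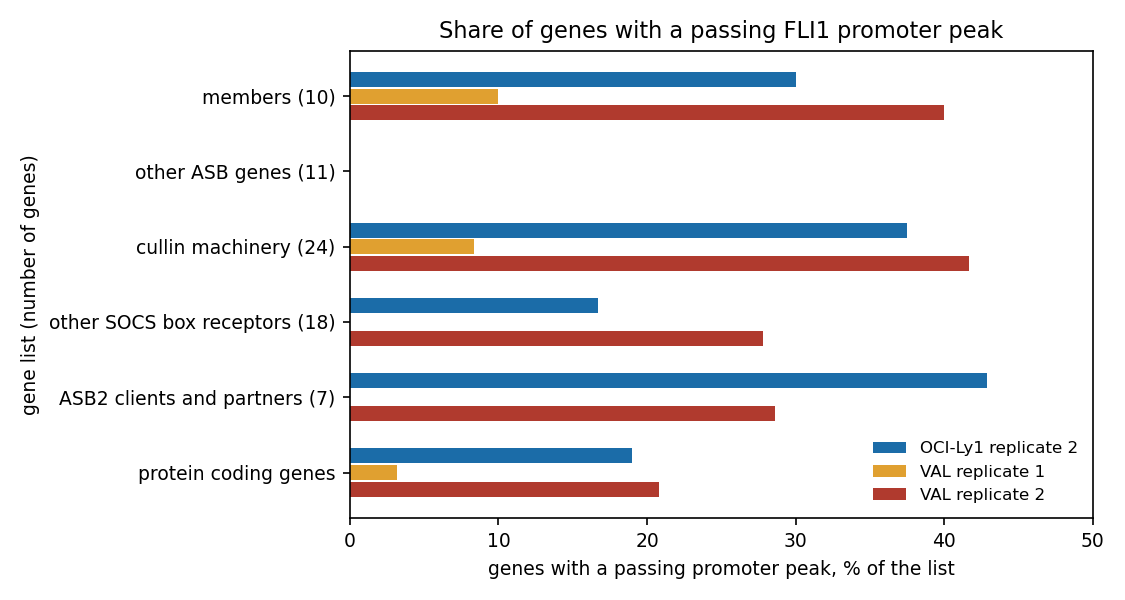
Percentage of the genes of each list with a passing promoter peak, with 1 bar per library and all 20162 protein coding genes in the last row. The 11 other ASB genes, a list without the ASB members that passed, have no bar. The cullin machinery reaches 37.5% and 41.7% in OCI-Ly1 and VAL-2, and protein coding genes reach 19.0% and 20.8%.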

How the data were processed

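FLI1 ChIP-Seq was analysed in 3 of 4 libraries of OCI-Ly1 and VAL, with groups and replicate numbers taken from the labels. The authors mapped reads to GRCh37 with bowtie2 and kept those mapping once with a quality of 10 or more, without duplicates. The submitters' processing notes name BWA and CASAVA 1.4 instead, on hg19. The methods name HOMER for peaks, whereas the deposited lists have the 10 columns of MACS2 and hold peaks with a p-value up to 0.05. Their control is not given in the sources used here. The fold enrichment (a ratio), the -log10 p and the -log10 q are values of the authors' peak caller, called per library. The deposited score column was not used.

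Reads k and background b were solved from fold = (k + 1) / (b + 1) and the Poisson p-value (tolerance 0.001), which gave a solution for 99.9975% or more of each list. Start sites, gene spans and features came from GENCODE release 44 on GRCh37. Members and gene lists were chosen with earlier results of these data known. All members are named. Of the lists (other ASB genes, cullin machinery, other SOCS box receptors, ASB2 clients and partners) the text names genes passing in at least 2 libraries, with ELOC, RBX1, CUL2 and the ASB2 clients, and 1 gene of the lists is not reported here. Alternatives covered the q-value, the promoter width, the TSS set, peak centre or summit, the closest TSS, each library, sharing and the motif. Reads and gene assignment were tested on simulated peaks. Software was python 3.11.15, pandas 2.3.3, numpy 2.4.6, scipy 1.17.1, pysam 0.24.0, samtools 1.23.1 and matplotlib 3.10.9.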

Additional observations from a re-analysis of the deposited data

How the results depend on the processing

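The counts depend most on the threshold. With every listed peak, 10, 8 and 10 members had a promoter peak in the OCI-Ly1, VAL-1 and VAL-2 libraries. Of protein coding genes, 98.9%, 74.9% and 98.6% had one in these libraries. At this setting 10 members had one in both lines and 0 had none, and 568 peaks lay inside the genes. With a -log10 q of at least 5, VAL replicate 1 had 0 members, against 1.79% of protein coding genes, and 4 peaks lay inside genes. OCI-Ly1 and VAL replicate 2 had 2 and 3 members, against 11.9% and 12.2%. The promoter calls lost were ASB1 in VAL replicate 1, ASB3 in OCI-Ly1 and ASB2 in VAL replicate 2. When a peak was given only to its closest TSS, 2 members passed in VAL replicate 2 (ASB2 and ASB3, without ASB1 and ASB6) and 1 in both lines, and ASB3 was lost in OCI-Ly1. Leaving out VAL replicate 1 gave 3 members in both lines, 6 without a passing peak, 6 passing peaks inside genes and 3 members with shared summits. Leaving out VAL replicate 2 gave 1, 7, 3 and 2 in the same order. Leaving out OCI-Ly1 replicate 2 leaves no library of that line and gave no value. Shared by an overlap of at least 1 bp rather than by summits, 7 members qualified, with no share of protein coding genes to set beside them. With promoters of 1 kb, with TSS of protein coding transcripts alone or with summits in place of centres, 81 values of single members kept their side of the threshold, 1 lost it (ASB2 at 1 kb, 1.82) and 2 had no listed peak. No paired analysis was possible because no test compares groups and OCI-Ly1 has 1 usable library. Precision is limited by 6 to 8 reads at the weakest passing peaks, by 1 OCI-Ly1 library and by lists whose form differs from the caller the methods name and whose control is not given.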

Other observations

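Within 50 kb of the 6 members without a passing promoter peak, passing peaks were found at other genes. The start of SENP1, which encodes a SUMO protease, lies within the annotated span of PFKM, the gene between it and ASB8, and had a passing peak in all 3 libraries, with a -log10 q of 46.0 in OCI-Ly1, 17.7 in VAL-1 and 38.4 in VAL-2. Its summits, at 48499817, 48499840 and 48499836 on chromosome 12, were 1 to 6 bp from a SENP1 start site and about 45 kb from ASB8 (45329 to 45352 bp from its closest TSS). The reads at these summits were 31, 35 and 33.

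Near ASB13, VAL-2 had a passing peak of 6.09 at the start of TASOR2, 18236 bp from the closest ASB13 TSS. Near ELOB, OCI-Ly1 had one of 4.25, 520 bp from the start of SRRM2-AS1, and near RNF7 one of 6.56 that was 9601 bp from the closest start, that of AC112504.1. In these 3 libraries no passing peak was found within 50 kb of CUL5 or ASB7. Whether any of these peaks acts on a member was not tested.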
